A study of Mus musculus with 8 samples.

Results

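The genes of oxidative phosphorylation were followed in RNA from late morulae, mouse embryos collected 78 h after fertilization. They were chosen by symbols that name subunits of respiratory complexes I to IV and of the ATP synthase, complex V, whether encoded in the nucleus or in mitochondrial DNA. These symbols also take in the accessory factors Atp5s and Cox7a2l and some pseudogenes, of which Ndufb4c was tested. Of 19058 genes in the deposited table, 103 matched the symbols, and 91 of those had a mean normalized abundance of at least 10 over the 8 libraries. These 91 comprised 78 nuclear-encoded and 13 mitochondrially encoded genes and were the ones tested. The level filter used the mean of all 8 libraries and no difference between groups.

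Zygotes had received a non-specific small interfering RNA (siRNA) in the control group, siRNA against Rbbp4 in the Rbbp4 knockdown, siRNA against Rbbp7 in the Rbbp7 knockdown, or siRNA against both genes in the double knockdown. The products of Rbbp4 and Rbbp7 are similar proteins that bind histones and serve as subunits of several chromatin complexes. Each group had 2 libraries, and every embryo had been injected. The labels give no strain and do not say whether the 2 libraries in each group were made from different pools of embryos. The p-values here thus measure library-to-library spread, which may be technical. Whole embryos were used, so fewer cells of a type and less RNA per cell cannot be told apart.

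Oxidative phosphorylation carries electrons from NADH and succinate through the inner mitochondrial membrane to oxygen, and uses the resulting proton gradient to make ATP. Complexes I, III, IV and V are built from subunits of both genomes, whereas complex II, succinate dehydrogenase, is built from nuclear-encoded subunits alone. Mitochondrial DNA is transcribed as long precursors by its own polymerase, so its genes share transcripts, while each nuclear subunit gene has its own promoter. Mouse embryos before compaction depend largely on the oxidation of pyruvate in mitochondria for ATP, and glucose use rises towards the blastocyst.

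Because each nuclear subunit gene is driven by its own promoter, the promoters of the 4 genes that the results below turn on are shown, each from 250 bases before to 50 bases after the RefSeq start site, read 5′ to 3′ on the gene's own strand (RefSeq, build GRCm38.p6; all 4 genes lie on the minus strand). Capitals mark matches to 3 short motifs searched on both strands, the cores bound by NRF1 (GCGCA, any base, then GCGC), by ETS factors such as GABP (CCGGAAG) and by YY1 (AANATGGC), which are known regulators of respiratory genes. The windows are chr6:126849095-126849394 for Ndufa9, chr7:30626065-30626364 for Cox6b1, chr7:4753045-4753344 for Cox6b2 and chr15:102670998-102671297 for Atp5g2.
Ndufa9: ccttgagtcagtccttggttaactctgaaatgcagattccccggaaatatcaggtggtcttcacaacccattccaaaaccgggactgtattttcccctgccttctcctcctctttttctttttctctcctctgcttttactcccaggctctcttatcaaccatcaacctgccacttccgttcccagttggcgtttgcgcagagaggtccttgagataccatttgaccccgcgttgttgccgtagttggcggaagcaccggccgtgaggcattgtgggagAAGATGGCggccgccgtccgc
Cox6b1: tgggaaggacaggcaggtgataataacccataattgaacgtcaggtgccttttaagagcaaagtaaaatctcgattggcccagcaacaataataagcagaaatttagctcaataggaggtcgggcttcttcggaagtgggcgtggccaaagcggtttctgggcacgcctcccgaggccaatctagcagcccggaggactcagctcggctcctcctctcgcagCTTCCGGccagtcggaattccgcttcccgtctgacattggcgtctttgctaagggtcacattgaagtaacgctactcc
Cox6b2: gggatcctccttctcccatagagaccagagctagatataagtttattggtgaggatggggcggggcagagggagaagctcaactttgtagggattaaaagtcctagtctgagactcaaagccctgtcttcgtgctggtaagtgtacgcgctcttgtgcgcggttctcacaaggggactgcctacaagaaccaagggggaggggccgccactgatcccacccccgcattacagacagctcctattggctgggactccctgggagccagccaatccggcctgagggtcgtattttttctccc
Atp5g2: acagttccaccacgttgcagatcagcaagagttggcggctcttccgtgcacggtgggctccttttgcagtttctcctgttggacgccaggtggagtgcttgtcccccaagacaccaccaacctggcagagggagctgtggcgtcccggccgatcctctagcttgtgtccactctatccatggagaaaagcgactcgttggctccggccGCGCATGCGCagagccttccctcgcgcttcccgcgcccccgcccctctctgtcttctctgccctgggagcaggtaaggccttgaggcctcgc
Ndufa9 had 1 match, to the YY1 core, after its start site. Cox6b1 had 1 match to the ETS core on the other strand, Atp5g2 had an NRF1 core that reads the same on both strands, and Cox6b2 had no match in the window.

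Promoter sequences were found for 63 of the 78 nuclear-encoded genes. A gene was counted for a motif if any of its promoter sequences held it. The NRF1 core was present for 17 of these 63 genes (27.0%). It was present for 11.7% of the 9527 tested genes with a promoter sequence and 5.2% of all 27025 genes with one. The YY1 core was present for 16 (25.4%), against 10.2% of tested genes and 7.0% of all genes. Of those 16, 12 were among the 31 complex I genes. The ETS core was also present for 16 (25.4%), against 20.6% of tested genes and 9.9% of all genes. None of the 63 genes had all 3 motifs and 21 had none of them. Each motif was searched on its own, so matches to different motifs may overlap. A match describes letters only, and no match says only that these letters are not in the window.

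Of the 91 oxidative phosphorylation genes tested, 1 passed the adjusted test. Ndufa9, a nuclear-encoded accessory subunit of complex I, had a listed value of 0 in each Rbbp4 knockdown library and was present in the other 6 libraries, including both double knockdown libraries. No other member passed the test in any of the 7 comparisons made, which were each knockdown against the control, the 3 knockdowns against each other, and the interaction of both siRNAs. The test was limma on log2(value + 1) over 12565 genes with Benjamini-Hochberg adjustment, and a gene was called at an adjusted p below 0.05.

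The knockdowns themselves were visible in the same libraries. The Rbbp4 values were 5300.1 and 4710.0 (control), 402 and 343 (Rbbp4 knockdown), 4369.7 and 4467 (Rbbp7 knockdown) and 348 and 433 (double knockdown). The Rbbp7 values were 8399 and 7205 (control), 6696 and 6295 (Rbbp4 knockdown), 298 and 293 (Rbbp7 knockdown) and 327 and 266 (double knockdown). Each target was therefore low in both groups that received its siRNA, and the Rbbp4 values of the Rbbp4 and double knockdowns overlapped. Control replicate 1 stood apart in its mitochondrial share and in the number of genes listed at 0, so the nuclear and mitochondrial medians against the control are given below with and without it.

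Ndufa9 (ENSMUSG00000000399; chr6:126821721-126849136, minus strand, GRCm38) encodes a subunit of the peripheral arm of complex I that lies near the ubiquinone reduction site. Its normalized abundance was 276 and 468 (control), 0 and 0 (Rbbp4 knockdown), 459 and 172 (Rbbp7 knockdown) and 476 and 323 (double knockdown). The 2 Rbbp4 knockdown libraries lay apart from all the others, while the other 3 groups overlapped and each varied widely between its own 2 libraries. A value of 0 in a table without read counts can be a failed estimate, so it is given as listed at 0, with no fold and no statement that the transcript was absent or reduced.

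With these 0 values taken as measured, the test called Ndufa9 between the Rbbp4 knockdown and the control (limma adjusted p = 1.30e-04), where 0.0239% of all tested genes were called. It also called Ndufa9 between the double and the Rbbp4 knockdown (adjusted p = 1.13e-04; 0.0159% of genes called) and between the Rbbp4 and the Rbbp7 knockdown (adjusted p = 1.26e-04; 0.0796% called). The interaction, the effect of the Rbbp4 siRNA with the Rbbp7 siRNA present minus its effect without it, had an adjusted p of 0.00344 (0.00796% called). Ndufa9 was the only gene called for the interaction, and it was no longer called without the intensity trend in the variance prior (adjusted p = 0.0658). Against the control the log2 difference was -0.35 ± 0.48 (SE) in the Rbbp7 knockdown (adjusted p = 0.854) and 0.13 ± 0.48 in the double knockdown (adjusted p = 0.925). The sign of both differences turned when single libraries were left out.

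A value of 0 in a single library was seen for other genes that most cells use. Of 8625 genes with a mean of at least 100, 32 were listed at 0 in at least 1 library, and Ndufa9 was the only one of 89 members among them. Ddx6, which encodes an RNA helicase, was listed at 0 in control replicate 1, and Tubgcp2, which encodes a component of the microtubule nucleation complex, in double knockdown replicate 2. Slc4a1ap was listed at 0 in Rbbp4 knockdown replicate 1, and Atxn1l in Rbbp4 knockdown replicate 2 and double knockdown replicate 1. Ndufa9 was the 1 gene listed at 0 in both libraries of a group and at 50 or more in the other 6 libraries, and no gene had that pattern for the control, the Rbbp7 knockdown or the double knockdown. Another gene, 1700018A23Rik, overlaps 3.19% of the exon bases of Ndufa9 and had no value under that symbol in the deposited table. Whether strand was used in counting is not given in the sources used here. Whether the 0 values came from the counting was not tested.

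The other 35 nuclear-encoded complex I genes, counted here with the pseudogene Ndufb4c among them, did not follow Ndufa9. Relative to its own mean over the 8 libraries, each of them stayed between 0.618 and 1.42 in every library, and in the Rbbp4 knockdown they ranged from 0.807 to 1.27. The median of the 36 nuclear complex I genes in the Rbbp4 knockdown against the control was -0.03 on the log2 scale, with 16 higher and 20 lower, beside 0.0049 for all tested genes.

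**Figure D1:**
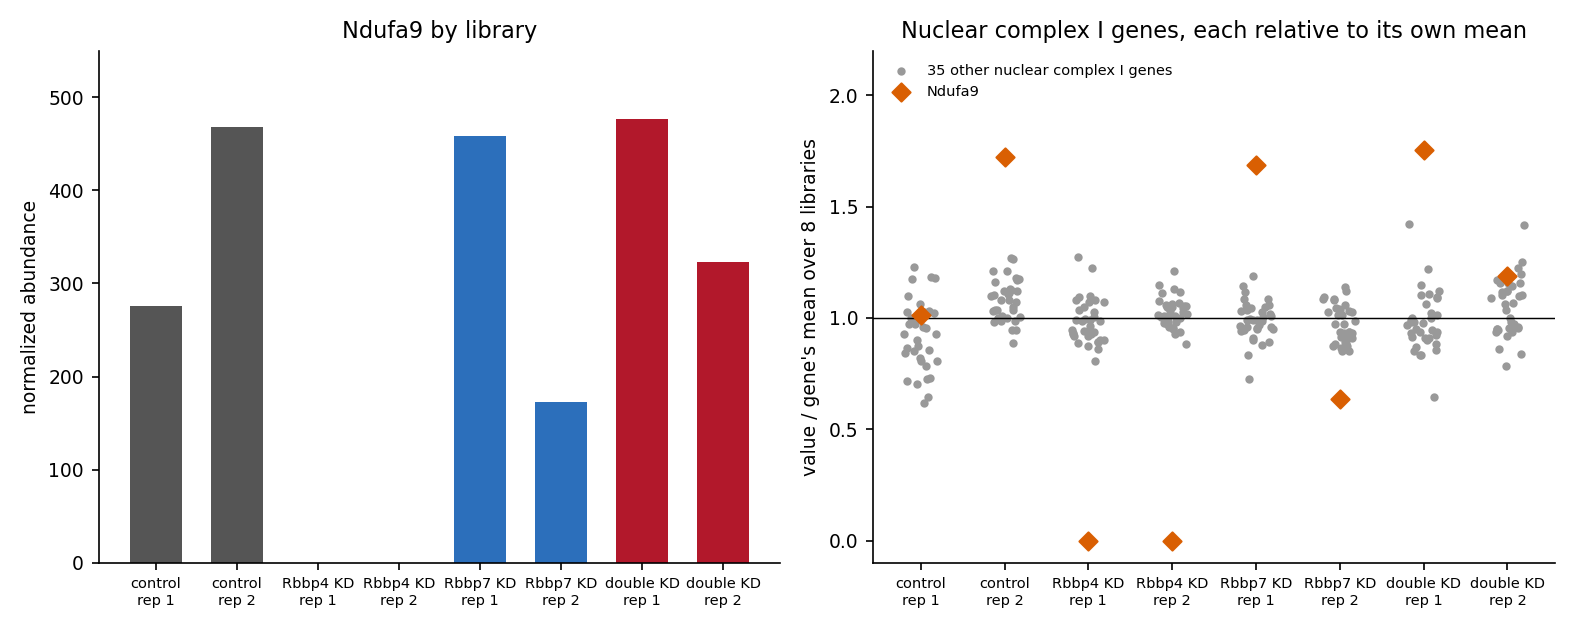
Left, normalized abundance of Ndufa9 in each of the 8 libraries (bars, linear axis from 0, coloured by group). Right, Ndufa9 (diamonds) and the 35 other nuclear-encoded complex I genes (points) as the value divided by the gene's mean over the 8 libraries; Ndufa9 is listed at 0 in both Rbbp4 knockdown libraries, where the other genes lie between 0.807 and 1.27.

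The catalytic core of complex I, which oxidizes NADH and passes electrons along iron-sulfur clusters, held no called gene. Ndufs1, which carries iron-sulfur clusters, had 1490.2 and 1431 (control), 1498 and 1472 (Rbbp4 knockdown), 1397 and 1418 (Rbbp7 knockdown) and 1455 and 1507 (double knockdown). Ndufv1, which binds NADH, had 804 and 1241 (control), 914 and 1037 (Rbbp4 knockdown), 1016 and 1072 (Rbbp7 knockdown) and 1178 and 942 (double knockdown). The groups overlapped for Ndufv1. For Ndufs1 both Rbbp7 knockdown libraries were the lowest by a narrow margin.

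Among the complex I genes with the smallest p-values, none but Ndufa9 passed the adjusted test. Ndufv2, the partner of Ndufv1 in the NADH-oxidizing module, had 1078 and 915 (control), 908 and 916 (Rbbp4 knockdown), 761 and 808 (Rbbp7 knockdown) and 914 and 1006 (double knockdown). The Rbbp7 knockdown libraries were the lowest (log2 difference from the control -0.34 ± 0.14, limma adjusted p = 0.473; 0.0239% of genes called in that comparison), and 0 of 91 members were called there. Ndufb11, an accessory subunit of the membrane arm, had 714 and 777 (control), 616 and 624 (Rbbp4 knockdown), 807 and 765 (Rbbp7 knockdown) and 689 and 663 (double knockdown). Its Rbbp4 knockdown libraries were the lowest, at -0.34 ± 0.13 against the Rbbp7 knockdown (adjusted p = 0.448).

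Ndufb4c, annotated as a processed pseudogene of the membrane-arm subunit gene Ndufb4, had 263 and 221 (control), 234 and 225 (Rbbp4 knockdown), 204 and 244 (Rbbp7 knockdown) and 138 and 184 (double knockdown). The double knockdown libraries were the lowest, at -0.59 ± 0.22 against the control (limma adjusted p = 0.221), -0.52 ± 0.22 against the Rbbp4 knockdown (adjusted p = 0.513) and -0.48 ± 0.22 against the Rbbp7 knockdown (adjusted p = 0.357). All of its 50-base words also occur in Ndufb4 or 2 other genes, so its level is uncertain. Ndufb4 itself ranged from 121 to 213, with the highest value in double knockdown replicate 2.

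Complex II has 4 subunits, all nuclear-encoded, and links the tricarboxylic acid cycle to the respiratory chain. Sdha, the flavoprotein that oxidizes succinate, had 1169 and 2033 (control), 2166 and 1964 (Rbbp4 knockdown), 1503 and 2472 (Rbbp7 knockdown) and 2062 and 1196 (double knockdown). Its libraries differed by more within the control, the Rbbp7 knockdown and the double knockdown than the group means differed from each other. Sdhb, the iron-sulfur subunit, had 715 and 976 (control), 807 and 732 (Rbbp4 knockdown), 788 and 772 (Rbbp7 knockdown) and 695 and 802 (double knockdown). Sdhc and Sdhd, the membrane anchors, ranged from 294 to 501 and from 228 to 341. In the double knockdown all 4 were lower than in the Rbbp4 knockdown (median log2 difference -0.26) and than in the Rbbp7 knockdown (median -0.16), where the medians of all tested genes were -0.0033 and -0.014. None of the 4 passed the test in any of the 7 comparisons, even at an unadjusted p below 0.05.

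Complex III passes electrons from ubiquinol to cytochrome c. Uqcrc1, a core protein, had 1285 and 1488 (control), 1444 and 1522 (Rbbp4 knockdown), 1529.6 and 1410.2 (Rbbp7 knockdown) and 1574 and 1779 (double knockdown). Uqcrc2, the other core protein, ranged from 1668 to 1916, and Uqcrfs1, the Rieske iron-sulfur protein, from 1017 to 1386. The median of the 8 nuclear genes against the control was -0.02, 0.04 and -0.02 in the Rbbp4, Rbbp7 and double knockdowns. No complex III gene reached an unadjusted p below 0.05 in any of the 7 comparisons.

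Complex IV, cytochrome c oxidase, is the complex for which mammals keep several tissue-dependent isoforms of its nuclear subunits. Cox4i1, the ubiquitous isoform of its Cox4 subunit, had 3573 and 4295 (control), 3463 and 3671 (Rbbp4 knockdown), 3656 and 3438 (Rbbp7 knockdown) and 3886 and 4073 (double knockdown), and Cox5a ranged from 2072 to 2543. Cox5b, a zinc-binding subunit, had 1364 and 1365 (control), 1108 and 1271 (Rbbp4 knockdown), 1136 and 1159 (Rbbp7 knockdown) and 1148 and 1242 (double knockdown). Both control values of Cox5b lay above all 6 knockdown libraries, and the share of all tested genes with such a separation was not counted. Its log2 difference from the control was -0.20 ± 0.12 in the Rbbp4 knockdown (limma adjusted p = 0.884), -0.25 ± 0.12 for the Rbbp7 knockdown (adjusted p = 0.563) and -0.19 ± 0.12 for the double knockdown (adjusted p = 0.463), and none passed. The median of the 12 tested nuclear genes against the control was 0.07, -0.01 and 0.10 on the log2 scale in the Rbbp4, Rbbp7 and double knockdowns, with 7, 6 and 9 of 12 higher.

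The members with the smallest p-values in the double knockdown were led by an isoform of Cox6b, the subunit that faces the intermembrane space. Cox6b2, an isoform best known from testis, had 139.8 and 115 (control), 138 and 159.5 (Rbbp4 knockdown), 234 and 177 (Rbbp7 knockdown) and 213 and 216 (double knockdown). All 4 libraries that received the Rbbp7 siRNA lay above all 4 that did not, an order noticed after the values were seen. How many of all tested genes have this order was not counted. The log2 difference from the control was 0.68 ± 0.23 (SE) in the Rbbp7 knockdown (limma adjusted p = 0.401) and 0.75 ± 0.23 in the double knockdown (adjusted p = 0.149; 1.15% of all genes called in that comparison), and against the Rbbp4 knockdown the double knockdown stood 0.53 ± 0.23 higher (adjusted p = 0.519). None of these passed, and 0 of 91 members were called in the double knockdown against the control.

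Cox6b1, the ubiquitous isoform, had 1523 and 1443 (control), 1207 and 1286 (Rbbp4 knockdown), 1256 and 1307 (Rbbp7 knockdown) and 1213 and 1198 (double knockdown). All 6 knockdown libraries lay below both controls, and the share of all tested genes with such a separation was not counted. The log2 difference was -0.25 ± 0.11 in the Rbbp4 knockdown (limma adjusted p = 0.850), -0.21 ± 0.11 in the Rbbp7 knockdown (adjusted p = 0.604) and -0.30 ± 0.11 in the double knockdown (adjusted p = 0.227). These 3 comparisons share their 2 control libraries, and none passed.

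Cox7b, a small subunit of complex IV, had 505 and 576 (control), 792 and 489.9 (Rbbp4 knockdown), 376 and 472 (Rbbp7 knockdown) and 536 and 621 (double knockdown). Rbbp4 knockdown replicate 1 was the highest and the Rbbp7 knockdown libraries were the lowest (0.56 ± 0.23 between these groups, limma adjusted p = 0.498). The double knockdown stood 0.45 ± 0.23 above the Rbbp7 knockdown (adjusted p = 0.405; 0.358% of genes called), a comparison in which 0 of 91 members were called and 0 had an unadjusted p below 0.05, beside 15% of all tested genes.

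The isoform families of complex IV with more than 1 gene listed were each dominated by 1 gene. Levels were set per kilobase of main transcript, as means of the 8 libraries. Cox6a1 was the only Cox6a gene listed, so it had no isoform to be compared with. Cox6b1 stood at 2110.1 per kb and Cox6b2 at 315 per kb. Cox7a2, the liver-type isoform, stood at 1219 per kb and Cox7a1, the heart and muscle type, at 190.0 per kb. Cox4i1 stood at 5043 per kb, Cox6a1 at 4110.1 per kb and Cox8a at 5487 per kb, while Cox4i2, Cox8b and Cox8c were below the level filter in these embryos, with no value above 5 in any library.

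Cox6a1 and Cox7a1 differed widely between the 2 control libraries. The Cox6a1 values were 1578 and 2984 (control), 2459 and 2251 (Rbbp4 knockdown), 2489 and 2046 (Rbbp7 knockdown) and 2789 and 2178 (double knockdown). The Cox7a1 values were 42.8 and 109 (control), 68.5 and 67.3 (Rbbp4 knockdown), 70.6 and 55.3 (Rbbp7 knockdown) and 107 and 76.6 (double knockdown). For both genes control replicate 1 was the lowest of the 8 libraries, and control replicate 2 was the highest. Cox7a2 ranged from 669 to 889 and Cox8a from 2466 to 3505, and for these too control replicate 1 was the lowest. Other complex IV genes differed, and control replicate 1 was the highest library for Cox6b1 (1523) and Cox5a (2543).

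Complex V makes ATP from the proton gradient. Atp5b, the catalytic beta subunit, reached 7551 per kb of main transcript, the highest of the 78 nuclear genes, and Atp5a1, the alpha subunit, stood at 3749 per kb. Its values were 11756 and 15151 (control), 16033 and 13545 (Rbbp4 knockdown), 17956 and 14669 (Rbbp7 knockdown) and 13523 and 13112 (double knockdown). Those of Atp5a1 were 8916 and 10351 (control), 9322 and 9831 (Rbbp4 knockdown), 9114 and 9189 (Rbbp7 knockdown) and 8519.6 and 8864 (double knockdown). For Atp5a1 both double knockdown libraries lay below the other 6, and for Atp5b the lowest library was a control.

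The c ring of the ATP synthase, through which protons pass, is built from a single mature protein encoded by 3 genes. Atp5g3 stood at 3255 per kb, Atp5g1 at 3079 per kb and Atp5g2 at 390 per kb. Atp5g1 ranged from 1765 to 2374 and Atp5g3 from 1873 to 2741. Atp5g2 had 81.2 and 144 (control), 294 and 181 (Rbbp4 knockdown), 193 and 170.3 (Rbbp7 knockdown) and 168 and 146 (double knockdown), so both control libraries lay below all 6 knockdown libraries. The log2 difference from the control was 1.09 ± 0.33 in the Rbbp4 knockdown (limma adjusted p = 0.723), 0.74 ± 0.33 in the Rbbp7 knockdown (adjusted p = 0.523) and 0.53 ± 0.33 in the double knockdown (adjusted p = 0.439). The interaction was -1.30 ± 0.46 (adjusted p = 0.753). About 38.3% of the 50-base words of Atp5g2 occur in other genes, and none of its differences passed. The share of all tested genes with controls below all knockdown libraries was not counted.

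Atp5s, which encodes an accessory factor of the ATP synthase, had the lowest level of the 91 tested, a mean of 11.7, and lay just inside the filter. Its values were 0 and 8.01 (control), 14.0 and 22.8 (Rbbp4 knockdown), 18.2 and 17.7 (Rbbp7 knockdown) and 3.16 and 9.87 (double knockdown). The Rbbp4 and Rbbp7 knockdown libraries were the highest, but none of its differences passed (interaction -4.15 ± 1.56, limma adjusted p = 0.760). Cox7a2l, which encodes a factor that joins complexes III and IV, ranged from 994 to 1119.8.

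The member just outside the filter on that scale was Cox7b2, with a mean of 6.82. Ndufa4, now counted as a subunit of complex IV, had a mean of 5.99, with values of 16.0 and 0 (control), 3.97 and 3.13 (Rbbp4 knockdown), 1.61 and 9.27 (Rbbp7 knockdown) and 11.5 and 2.41 (double knockdown). The other 10 genes below the filter were Cox4i2, Cox8b and Cox8c, and the processed pseudogenes Cox6c2, Ndufa11b, Ndufs6b, Atp5l-ps1, Atp5l-ps2, Atp5l2-ps and Uqcrh-ps2.

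The 13 mitochondrially encoded genes made up 4.26% to 6.21% of all normalized abundance. All matched nuclear genes, including those below the level filter, together made up 0.774% to 0.931%. The mitochondrial share was 6.21% and 4.29% (control), 4.48% and 4.70% (Rbbp4 knockdown), 4.29% and 4.43% (Rbbp7 knockdown) and 4.26% and 5.53% (double knockdown). Control replicate 1 and double knockdown replicate 2 stood apart from the other 6 libraries, and the 2 controls were farther apart than any group means.

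The same 2 libraries were mostly the highest for the single genes, which are the parts of that share and so add no separate support. For mt-Nd1, a complex I subunit of the proton-pumping arm, the values were 98266 and 73420.3 (control), 68694 and 79036 (Rbbp4 knockdown), 67891 and 75272 (Rbbp7 knockdown) and 65673 and 85964 (double knockdown). For mt-Cytb, the complex III subunit that binds ubiquinol, they were 87389 and 58804 (control), 58058 and 64539 (Rbbp4 knockdown), 61018 and 59564 (Rbbp7 knockdown) and 61692 and 71292 (double knockdown). For mt-Co1, the catalytic subunit of complex IV, they were 122110.0 and 100112 (control), 98655 and 99004 (Rbbp4 knockdown), 88613 and 103883 (Rbbp7 knockdown) and 85596 and 117212 (double knockdown). Control replicate 1 was the highest library for 12 of the 13 genes, all but mt-Co2. Double knockdown replicate 2 was among the highest 2 libraries for 12, all but mt-Nd4l. How often these libraries were the highest over all tested genes was not counted.

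The values of mt-Co2, the subunit that accepts electrons from cytochrome c, were 49054 and 40179 (control), 38622 and 41604 (Rbbp4 knockdown), 40020.5 and 40078 (Rbbp7 knockdown) and 36518 and 52263 (double knockdown). For mt-Atp6, the proton channel subunit of complex V, the values were 87994 and 43019 (control), 44768 and 46921 (Rbbp4 knockdown), 43775 and 43034 (Rbbp7 knockdown) and 43128 and 56019 (double knockdown), so that control replicate 1 lay far above the rest. Among the remaining genes, mt-Atp8 ranged from 7095 to 15737 and mt-Co3 from 18616 to 28318. The complex I genes mt-Nd2, mt-Nd3 and mt-Nd4 ranged from 45211 to 78546, from 5001 to 12306 and from 47095 to 69703. The complex I genes mt-Nd4l, mt-Nd5 and mt-Nd6 ranged from 8077 to 15025, from 42328 to 65342 and from 9026 to 15987.

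**Figure D2:**
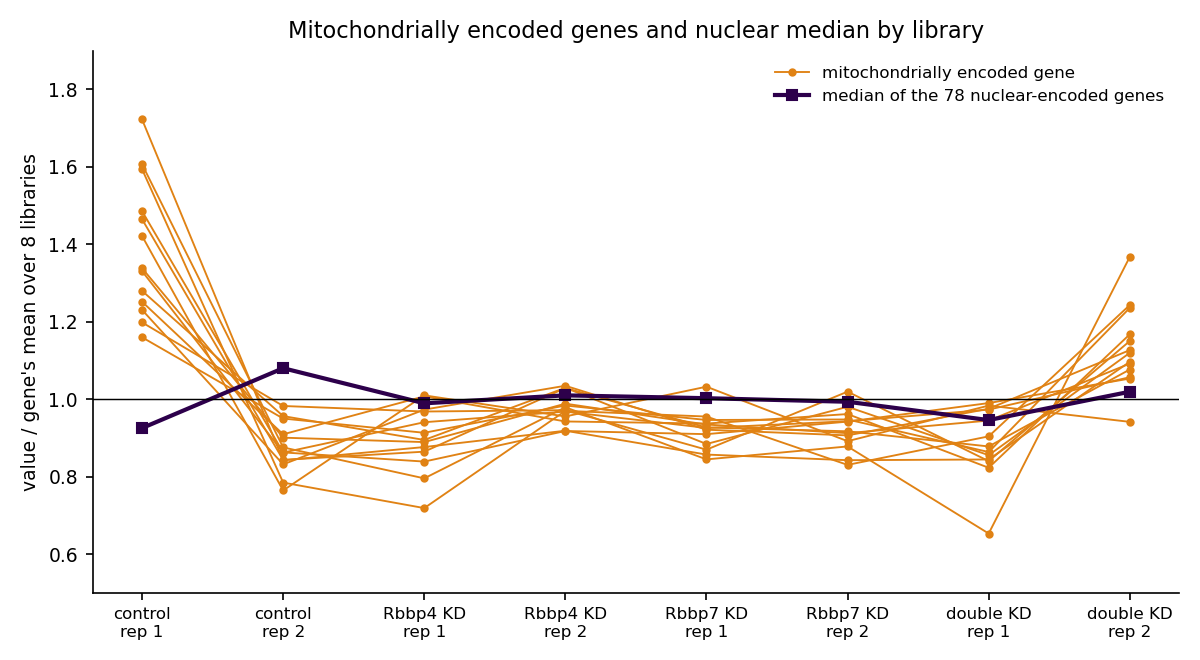
Value of each of the 13 mitochondrially encoded genes (thin lines) and the median of the 78 nuclear-encoded genes (thick line) in each library, each gene divided by its own mean over the 8 libraries. In control replicate 1 the mitochondrial genes lie between 1.16 and 1.72 and the nuclear median is 0.925, and in control replicate 2 they lie between 0.764 and 0.982 and the nuclear median is 1.08.

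The differences of the mitochondrially encoded genes from the control rested on control replicate 1. With both controls, 13, 13 and 12 of 13 had lower means in the Rbbp4, Rbbp7 and double knockdowns (9, 10 and 9 under quantile normalization), with median log2 differences of -0.21, -0.25 and -0.12. Without control replicate 1, the medians were 0.09, 0.06 and 0.19, with 11, 9 and 13 of 13 higher. Without control replicate 2, they were -0.51, -0.54 and -0.40, with all 13 lower in each. No mitochondrially encoded gene was called, and 0 of 13 had an unadjusted p below 0.05 in any of the 7 comparisons. In the double knockdown the median also rested on its own libraries, at 0.02 without double knockdown replicate 1 and -0.31 without double knockdown replicate 2.

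The nuclear genes moved the other way between the 2 controls. Their medians against the control were -0.01, -0.01 and 0.01 in the Rbbp4, Rbbp7 and double knockdowns, with 36, 37 and 40 of 78 higher. Without control replicate 1 the medians were -0.10, -0.10 and -0.13, with 58, 61 and 60 of 78 lower, and without control replicate 2 they were 0.10, 0.10 and 0.15, with 48, 49 and 52 of 78 higher. Over all tested genes the medians were -0.0023, 0 and -0.018 without control replicate 1. Without control replicate 2 they were 0.0049, 0.00145 and 0.0041. Control replicate 1 was the lowest library for 35 of the 78 nuclear genes, and control replicate 2 was the highest for 25. The matching shares over all tested genes were not counted. The ratio of summed mitochondrial to summed nuclear abundance was taken over all matched genes, including those below the level filter. It was 8.02 in control replicate 1, 4.61 in control replicate 2, and 4.87 to 6.17 in the knockdown libraries.

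Control replicate 1 differed from the others in further measures. It listed 3937 genes at 0, against 2644 to 3237 in the other 7 libraries. The 9 nuclear genes of the table that are copies of mitochondrial DNA summed to 24349 there, against 3829 to 15639 elsewhere. As a percent of the summed mitochondrially encoded genes they were 3.26% there, close to the 3.09% of Rbbp7 knockdown replicate 1. The single copies did not all follow the sum, since Gm10925 was lowest in control replicate 1 (362). Whether these measures have a part in the difference between the controls was not tested.

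Such copies also bear on the levels of single mitochondrial genes. More than 50% of the 50-base words of mt-Atp6, mt-Co1, mt-Co2, mt-Co3, mt-Nd3, mt-Nd4 and mt-Nd4l occur in nuclear copies, so reads of these genes could be split by the authors' counting, and their levels are uncertain. The copies themselves took 0.0338% to 0.203% of the total. The reading frames of mt-Atp8 and mt-Atp6 and those of mt-Nd4l and mt-Nd4 overlap, which leaves the division of reads within each pair uncertain.

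By complex, the medians depended on the control library in both genomes. With both controls, for complex I the nuclear medians were -0.03, -0.01 and 0.02 in the Rbbp4, Rbbp7 and double knockdowns and the mitochondrial medians -0.21, -0.25 and -0.15. For complex V the nuclear medians were -0.01, -0.03 and -0.03, and those of its 2 mitochondrial genes -0.42, -0.42 and -0.20. Complex IV had mitochondrial medians of -0.15, -0.17 and -0.12. Without control replicate 1, the nuclear medians of all 5 complexes were negative in all 3 comparisons, from -0.38 to -0.024, and the mitochondrial medians ran from -0.0047 to 0.31. Without control replicate 2, the nuclear medians were all positive, from 0.016 to 0.21, and the mitochondrial medians ran from -0.94 to -0.29.

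**Figure D3:**
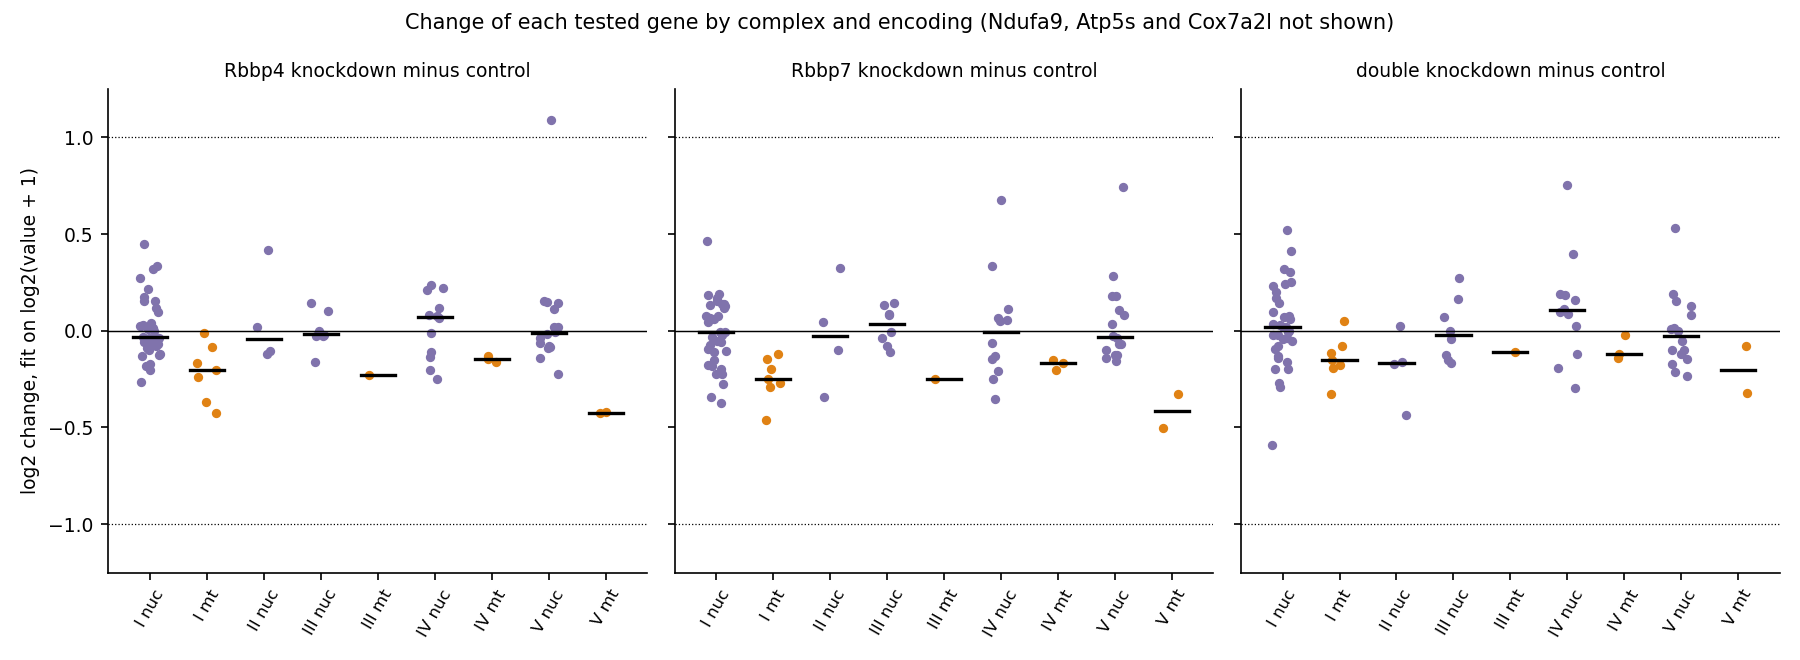
Log2 difference from the control, fitted on log2(value + 1), in the Rbbp4, Rbbp7 and double knockdowns (panels), by complex and genome. Labels are nuc for nuclear-encoded and mt for mitochondrially encoded. Each tested gene is drawn except Ndufa9, Atp5s and Cox7a2l, which are not shown. Black bars are medians of the genes shown, and dotted lines mark a 2-fold change. With both controls included, mitochondrial medians lie below 0 and nuclear medians between -0.17 and 0.10.

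The precision of the fit limits how small a difference could be seen. The median SE of the 91 members was 0.17 on the log2 scale, against 0.24 for all tested genes. The 95% interval of the difference from the control lay within a 2-fold change in either direction for 81, 81 and 83 of 91 members in the Rbbp4, Rbbp7 and double knockdowns. The same held for 7977, 7716 and 7240 of the 12565 tested genes. At an unadjusted p below 0.05 there were 3, 5 and 4 of 91 members in these comparisons, beside 5.86%, 9.55% and 17.3% of all tested genes. There were 3 of 91 in the double against the Rbbp4 knockdown (9.57% of all tested genes), 3 in the Rbbp4 against the Rbbp7 knockdown (9.3%) and 3 for the interaction (6.49%).

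Levels per transcript length set the 2 genomes far apart. The median abundance per kb of main transcript was 48392 for the 13 mitochondrial genes and 933 for the 78 nuclear genes, a ratio of 51.9. Mitochondrial genes ranged from 20733 per kb for mt-Nd6, the light-strand gene, to 80227 per kb for mt-Nd1. Libraries were made from polyadenylated RNA, and whether both genomes' transcripts were captured alike was not tested. The main transcript is the principal isoform of the annotation, and a gene's level per kb depends on that choice.

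Among the nuclear genes, complexes IV and V stood above complexes I and II. The medians were 2800 per kb for the 12 genes of complex IV, 2310.0 for the 16 of complex V, 1203 for the 8 of complex III, 642 for the 36 of complex I and 430 for the 4 of complex II. Complex I genes ranged from 80.7 per kb for Ndufs4 to 1472 per kb for Ndufc1, and Ndufa9 stood at 220 per kb as a mean that includes its 2 values of 0. Complex IV genes ranged from 190.0 per kb for Cox7a1 to 5487 per kb for Cox8a, and the nuclear ranges of complexes II and III were the only pair that did not overlap.

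**Figure D4:**
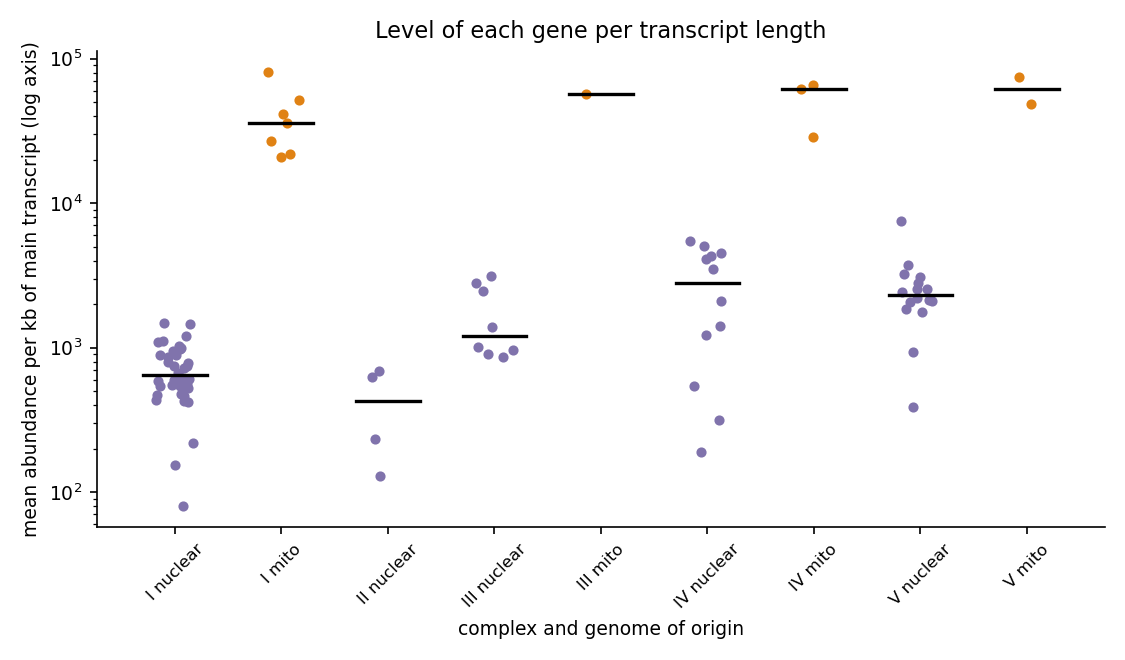
Mean normalized abundance over the 8 libraries per kilobase of main transcript (log axis) for each tested gene of complexes I to V, by genome; black bars are medians. All mitochondrially encoded genes lie at 20733 per kb or higher, and the highest nuclear gene, Atp5b, lies at 7551.

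Other mitochondrial genes were examined in 11 lists, which hold assembly factors of each complex, mobile carriers and electron entry, the tricarboxylic acid cycle, upkeep and transcription of mitochondrial DNA, nuclear regulators, the mitochondrial stress response and mitochondrial ribosomal proteins. Of 204 distinct genes tested, limma called 0 in each of the 7 comparisons. Against the control, 7, 12 and 20 of the 204 had an unadjusted p below 0.05 in the Rbbp4, Rbbp7 and double knockdowns, beside the 5.86%, 9.55% and 17.3% of all genes given above. In the double knockdown 91 were higher and 113 lower, with a median of -0.03.

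Assembly factors, which help build the complexes and are not part of them, had the following values in the double knockdown against the control, none of which passed. For complex I, 3 of 15 were higher and 12 lower (median -0.18), led by Ndufaf3 (-0.87 ± 0.27) and Ndufaf6 (-0.97 ± 0.43). For complex II, 3 of 4 were higher, and the leading genes were Sdhaf4 (0.75 ± 0.43) and Sdhaf2 (-0.09 ± 0.17). For complex III, 5 of 6 were higher, with Bcs1l at -0.65 ± 0.30 and Uqcc2 at 0.25 ± 0.19. For complex IV, 10 of 23 were higher, with Cox10, a heme-modifying enzyme, at -0.49 ± 0.17 and Cox18 at -0.38 ± 0.14. The difference farthest from 0 in that list, singled out after its values were seen, was that of Pet117, listed at 0 and 0 (control), 0 and 27.7 (Rbbp4 knockdown), 0 and 56.5 (Rbbp7 knockdown) and 20.1 and 34.5 (double knockdown), with an adjusted p of 0.265 in the double knockdown. For complex V, 3 of 5 were higher, with Atpaf2 at -0.48 ± 0.19 and Tmem242 at 0.42 ± 0.21.

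The remaining lists likewise held no called gene. In the tricarboxylic acid cycle 7 of 16 were higher, with Cs, citrate synthase, at -0.47 ± 0.13 (limma adjusted p = 0.115, the smallest of all listed genes in this comparison) and Pdhb, a subunit of pyruvate dehydrogenase, at -0.26 ± 0.11. Cs was 3527 and 4371 in the controls and 2475 to 3209 in the 6 knockdown libraries, with no overlap. Ndufaf3, Pdhb and Esrra also had no overlap between the controls and the knockdown libraries. As for Cox5b, Cox6b1 and Atp5g2 above, the share of all tested genes with such a separation was not counted. Nor was it counted for the groups that lay lowest for Ndufs1, Ndufv2, Ndufb11, Ndufb4c, Cox7b and Atp5a1 or highest for Atp5s. Among carriers and electron entry 10 of 16 were higher, with Etfa at 0.30 ± 0.13 and Coq2 at 0.88 ± 0.40. Mitochondrial DNA upkeep and transcription had 8 of 17 higher, with Polrmt, the mitochondrial RNA polymerase, at -0.29 ± 0.19 and Tfb1m at -0.38 ± 0.26.

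Nuclear regulators had 5 of 10 higher, with Gabpb1, a subunit of GABP, at 0.52 ± 0.19 and Esrra, a nuclear receptor that activates respiratory genes, at 0.55 ± 0.21. The stress response list had 11 of 16 higher, led by Gdf15, a secreted stress signal, at 1.80 ± 0.57 (limma adjusted p = 0.157). Gdf15 values were 12.2 and 11.3 (control), 33.9 and 23.8 (Rbbp4 knockdown), 21.5 and 8.79 (Rbbp7 knockdown) and 40.0 and 46.4 (double knockdown). Both Rbbp4 knockdown libraries thus also lay above the controls, and the level was low, with a mean of 24.8. Atf5, a transcription factor of that response, stood at 0.54 ± 0.32. Mitochondrial ribosomal proteins had 27 of 78 higher and 51 lower (median -0.09), with Mrpl37 at -0.49 ± 0.15 and Mrpl10 at -0.35 ± 0.13.

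The column totals of the normalized table ranged from 11334107 to 12011829, and sequencing depth per library is not known from the files. All 12 markers of the late morula were present with a mean of at least 10, and their summed level was 49944 to 66679, lowest in the double knockdown (49944 and 50080). Of 10 cumulus and granulosa cell markers 4 were in the table, and their sum was 37.6 to 91.2 in the other 6 libraries and 114 and 130 in the double knockdown, which was not tested. Egg, sperm and red blood cell markers summed to 107 to 195, 0 to 4.91 and 5.44 to 24.4.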

How the data were processed

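Polyadenylated RNA was sequenced from late morulae in 8 libraries, 2 in each of 4 groups, grouped by their titles. The submitters' processing notes name Trimmomatic, HISAT2, featureCounts, DESeq2 and GRCm38 without versions, settings or annotation release. Per the labels and table name, the authors deposited a signal, DESeq2-normalized abundance per Ensembl gene, not raw counts. Only 30.9% to 63.5% of values below 20 were whole multiples of the library's step within 0.05, so whole reads were not recovered, no count model was fitted, depth is unknown and no counting intervals are given.

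Identifiers were matched to symbols (18942 of 19058), and 0 columns came from other samples. Genes with a mean of 10 or more (12565) were analysed as log2(value + 1) with limma 3.58.1 in R 4.3.3, 1 mean per group over all 8 libraries, an intensity trend in the prior (residual df 4, prior df 5.18), two-sided, with Benjamini-Hochberg adjustment over all tested genes of each comparison and a threshold of 0.05. Fold changes on this scale understate those of low genes. The code was tested on simulated data. Named were Ndufa9, called members, the 3 members with the smallest p in each comparison, mitochondrially encoded genes, core subunits and isoform families, members beside the filter, and in each list the 2 genes with the smallest p in the double knockdown. Values of 1 core subunit are not reported here. The members and lists were chosen with earlier results of these data known. Lengths, overlaps and shared 50-base words came from GENCODE vM21 (GRCm38), and the level per kb used the median length of the principal transcripts. Alternatives changed the pseudocount, filter, scaling, variance prior, weights, libraries in the fit and replicate block, and left out each library in turn.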

Additional observations from a re-analysis of the deposited data

Results flagged for a closer look

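For Ndufa9, the difference linked to the Rbbp4 siRNA was itself tested between embryos without and with the Rbbp7 siRNA, and the test passed (limma interaction, adjusted p = 0.00344). It rests on 2 values of exactly 0 in a table without read counts, which can be failed estimates, and takes them as measured. Without the Rbbp7 siRNA, the table lists Ndufa9 at 0 and 0 (Rbbp4 knockdown) and at 276 and 468 in the controls. With it, Ndufa9 was at 476 and 323 in the double knockdown and at 459 and 172 in the Rbbp7 knockdown. Over 19 alternatives the adjusted p of this difference ranged from 0.00161 to 0.0658, and 18 of the 19 kept it below the threshold. With 2 libraries, no group was large enough for a check of outlying samples within it.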

How the results depend on the processing

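The count of members called was the same under every alternative run in 6 of the 7 comparisons, and Ndufa9 was called in 20 of 20 alternatives for each of its 3 comparisons between groups (adjusted p up to 0.0173 against the control, 0.0154 for the double against the Rbbp4 knockdown and 0.0213 for the Rbbp4 against the Rbbp7 knockdown). Every alternative took the listed values of 0 for Ndufa9 as measured, so none could test whether they are failed estimates. For the interaction the count of members called fell to 0 without the intensity trend. Where leaving out a library left a group with 1, that library was assumed to vary like the other groups. The median log2 difference of all 91 members then ranged from -0.086 to 0.044 in the Rbbp7 knockdown against the control, -0.098 to 0.074 in the double knockdown against the control, -0.067 to 0.066 against the Rbbp4 knockdown, -0.055 to 0.077 against the Rbbp7 knockdown and -0.042 to 0.11 for the interaction; control replicates 1 and 2 or double knockdown replicates 1 and 2 set each end. Ndufa9 ranged from -1.05 to 0.35 in the Rbbp7 knockdown against the control, -0.25 to 0.51 in the double knockdown against the control and -0.22 to 1.18 in the double against the Rbbp7 knockdown, and Sdhaf2 from -0.26 to 0.074 in the double knockdown against the control. Of the sum over all 103 matched genes, mitochondrially encoded genes made up 85.5% (control), 83.9% (Rbbp4 knockdown), 83.5% (Rbbp7 knockdown) and 84.8% (double knockdown). Of all abundance they made up 5.25%, 4.59%, 4.36% and 4.89% in the same order. The cause of these changes was not tested.

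The labels do not say whether libraries with equal replicate numbers belong together. Deviations of same-numbered libraries correlated at -0.022 to 0.051 over the 6 pairs of groups. With the replicate number as a block, against the control 1 member was called for the Rbbp4 knockdown and 0 for the double, as without it, and no other count of called members changed. Low values are the least certain, since depth is unknown.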
